A study of Saccharomyces cerevisiae with 6 samples.

Results

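The effect of deleting KNR4 on the transcripts of a wine yeast was compared between stationary and mid-exponential phase of an alcoholic fermentation. All 6 two-colour arrays of the study entered the comparison, 3 from stationary and 3 from mid-exponential phase. Each array gave the ratio of the mutant's RNA to the wild type's at a single stage, so the quantity followed here is a difference of 2 such ratios: the log2 ratio in stationary phase minus the log2 ratio in mid-exponential phase. The mutant was EKD-13, the EC1118 strain with both copies of KNR4 removed, and the wild type was EC1118 itself, an industrial Saccharomyces cerevisiae strain. EKD-13 is a single recombinant strain, and no second deletion strain or strain with KNR4 put back was analysed here. Both strains fermented the synthetic must MS300 in 1 L at 28 °C. Stationary cultures had released 70 g of CO2 when they were sampled, and mid-exponential cultures 10 g. A positive difference means that the mutant stood higher, relative to wild type, in stationary than in mid-exponential phase. Wild-type levels of the 2 phases never met on an array, so a change of a gene between phases within a strain was not measured.

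KNR4, named SMI1 in the reference annotation, encodes a largely disordered protein that binds the kinase Slt2 and helps to coordinate cell wall synthesis with growth. Slt2 is the last kinase of the cell wall integrity pathway, in which membrane sensors activate Rho1, protein kinase C and a kinase cascade that ends at the transcription factors Rlm1 and SBF. As a wine fermentation goes from growth to stationary phase, the cells stop dividing, nitrogen runs out, ethanol builds up and stress-response genes are expressed. In RNA from whole cultures, fewer cells of a type and less RNA per cell cannot be told apart.

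The arrays carried 15488 spots, and 53.1 to 60.6% of them had a ratio on the stationary arrays, against 77.0 to 85.6% on the mid-exponential arrays. Median log2 ratios lay between -0.027 and 0.019 on the 6 arrays. Standard deviations of the log2 ratios were 0.95, 1.10 and 1.13 on the stationary arrays, against 0.69, 0.95 and 0.73 on the mid-exponential arrays. KNR4, listed as SMI1, had too few ratios to be tested, with a single value of -4.51 on mid-exponential array 3. In the authors' deposited tables its log2 fold change was -1.74 in stationary and -1.89 in mid-exponential phase. Those tables are a second processing of the same arrays. The mutant's RNA was labelled with Cy5 on arrays 1 and 3 and with Cy3 on array 2 of each phase. On stationary array 2 alone, the mutant's vessel and the wild type's belonged to different fermentation sets. Haploid-cell markers were tested for 7 of 24 genes and sporulating-cell markers for 12 of 38, and no member of either list was called in the limma fit of all 6 arrays described below. One sporulation marker, SPS100, had a difference of -6.61 with phases that did not overlap (adjusted p = 0.060 in that fit), and it was called with array weights and with arrays scaled to a common spread.

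The array ratios of 4289 genes, each measured on 2 or more arrays per phase, were fitted with limma, and the means of the 2 phases were compared. At a Benjamini-Hochberg adjusted p under 0.05, 5 genes differed between the phases, which is 0.117% of those tested. HXT1 and VHR2 stood higher in stationary phase (2 genes, 0.0466%), and INO1, AZR1 and RNR3 lower (3 genes, 0.0699%). An unadjusted p under 0.05 was reached by 548 genes, 12.8% of those tested, with 299 higher (6.97%) and 249 lower (5.81%) in stationary phase. INO1 was called with any 1 of the 6 arrays left out. AZR1, RNR3, VHR2 and HXT1 were called when stationary array 2 was left out, and AZR1 also when stationary array 3 was, but none of these 4 when any other array was left out; VHR2 had too few ratios to be tested without stationary array 1 or 3. The count ran from 1 to 21 over these 6 fits, with 21 when stationary array 2 was left out. Same-numbered arrays of the 2 phases share both fermentation vessels (array 3) or one of them (the mutant's on array 1, the wild type's on array 2). With array number as a replicate block, INO1 was called in the limma fit (adjusted p = 0.039), and AZR1 (0.25), RNR3 (0.35), HXT1 (0.48) and VHR2 (0.49) were not, as adjusted p. Arrays scaled to a common spread gave 0 higher and 4 lower genes, in place of 2 and 3. The 4 were INO1, AZR1, RTA1 and SPS100, so RNR3, HXT1 and VHR2 were not called there.

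**Figure D1:**
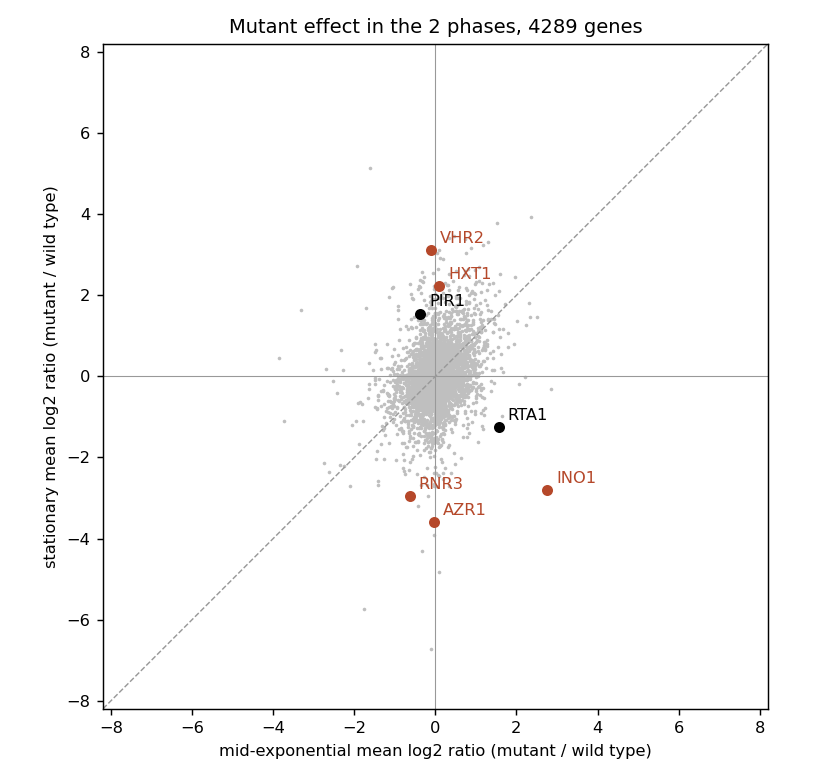
Mean log2 ratio of mutant over wild type in stationary phase (vertical axis) against that in mid-exponential phase (horizontal axis), with each of the 4289 tested genes as a grey point. Red points are the 5 genes that differed in the limma fit, black points are RTA1 and PIR1, and the dashed line marks an equal effect in both phases. INO1 sits alone at 2.76 on the horizontal and -2.80 on the vertical axis.

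INO1 reversed. It encodes the synthase that turns glucose 6-phosphate into inositol phosphate, the first step of inositol synthesis. Its log2 ratios were -2.64, -2.59 and -3.18 on the stationary arrays, against 2.75, 3.07 and 2.48 on the mid-exponential arrays. The 2 phases lay on opposite sides of 0 on every array and were far apart. The means were -2.80 ± 0.33 in stationary and 2.76 ± 0.30 in mid-exponential phase (SD, n = 3 each), or 6.99-fold lower and 6.79-fold higher than wild type. The difference of -5.57 ± 0.28 (SE) is a 47.4-fold shift of the mutant's effect, with an adjusted p of 0.0028 in the limma fit. INO1 was the one gene called in each phase alone with opposite signs. In the authors' deposited tables it had log2 fold changes of -2.28 in stationary and 2.16 in mid-exponential phase. Array 3, which used the same 2 fermentation vessels in both phases, gave a difference of -5.66, and array 1, from the other fermentation set, gave -5.39.

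The authors' deposited tables list 113 genes with an adjusted p under 0.05 in both phases, of which 110 had the same sign in both. The other 3, 0.047% of all genes, had opposite signs: INO1, RTA1 and PIR1. RTA1 encodes a membrane protein linked to resistance to aminocholesterol. Its log2 ratios were -1.31 and -1.21 on stationary arrays 1 and 3, against 1.40, 2.02 and 1.27 on the mid-exponential arrays, and it had no ratio on stationary array 2. The signs were opposite on all 5 arrays that measured it. The difference was -2.82 ± 0.33 (SE), with an adjusted p of 0.085 in the limma fit, so it missed the threshold there. It was called when arrays were scaled to a common spread and when stationary array 2 was left out. RTA1 stood at -0.29 in stationary and 0.62 in mid-exponential phase in the authors' deposited tables.

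PIR1, which encodes a glycosylated cell wall protein with internal repeats, went the other way. It had log2 ratios of 0.95, 2.13 and 1.57 on the stationary arrays, against -0.21, -0.62 and -0.31 on the mid-exponential arrays. Again no array of one phase shared a sign with an array of the other. The difference was 1.93 ± 0.35 (SE), and its adjusted p in the limma fit was 0.154. In the authors' deposited tables PIR1 stood at 0.69 in stationary and -0.36 in mid-exponential phase.

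For the other 4 genes that differed, the mutant was farther from wild type in stationary than in mid-exponential phase. AZR1, a plasma membrane transporter known for azole resistance, had log2 ratios of -3.39, -3.45 and -3.95 on the stationary arrays, against -0.17, 0.04 and 0.05 on the mid-exponential arrays. The phases did not overlap, and the mid-exponential values lay on both sides of 0. The difference was -3.57 ± 0.24 (SE), and limma's adjusted p was 0.0096. The authors' deposited tables gave -1.38 in stationary and 0.04 in mid-exponential phase.

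HXT1, the low-affinity glucose transporter induced by high glucose, had log2 ratios of 2.17, 2.12 and 2.38 on the stationary arrays, against 0.27, -0.07 and 0.08 on the mid-exponential arrays. The stationary values were tightly grouped and all above the mid-exponential ones. The difference was 2.13 ± 0.22 (SE) with an adjusted p of 0.043 in the limma fit, a 4.37-fold shift of the mutant's effect. The authors' deposited tables gave 2.11 in stationary and -0.02 in mid-exponential phase. Of the genes that differed, HXT1 was the one whose size was the same in both sources to 2 decimals. Its mean log2 intensity in the authors' deposited tables was 10.7 in stationary and 12.2 in mid-exponential phase, against medians of 7.49 and 7.93 over all genes.

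RNR3, an alternative large subunit of ribonucleotide reductase that is induced by DNA damage, was below wild type in both phases. Its log2 ratios were -3.07, -2.84 and -2.95 on the stationary arrays, against -0.87, -0.55 and -0.48 on the mid-exponential arrays. All 6 were negative, so this was a difference of size and not of sign. RNR3 was not called when arrays were scaled to a common spread. The difference was -2.32 ± 0.22 (SE), with an adjusted p of 0.042 in the limma fit. The authors' deposited tables gave -1.12 in stationary and -0.56 in mid-exponential phase, a difference of -0.56 that missed the threshold in the test on those tables described below (adjusted p = 0.16).

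VHR2, a relative of the transcription factor gene VHR1 that acts on vitamin H (biotin) genes, had log2 ratios of 3.30 and 2.93 on stationary arrays 1 and 3, against -0.14, -0.16 and -0.06 on the mid-exponential arrays. The signs were opposite on every measured array, but the mid-exponential values were small and passed no test on their own (adjusted p = 0.85 in the limma fit). The difference was 3.23 ± 0.26 (SE), and limma's adjusted p for it was 0.042. The authors' deposited tables gave 0.11 in stationary and -0.02 in mid-exponential phase, with a mean log2 intensity in stationary phase of 7.09, just under the upper limit of the lowest 25% of all genes, 7.10. The difference of VHR2 therefore rests on one of the 2 processings of the same arrays. Within a fermentation set, the AZR1 difference was -3.22 on array 1 and -3.99 on array 3. In the same order it was 1.89 and 2.29 for HXT1, -2.20 and -2.47 for RNR3, and 3.44 and 2.99 for VHR2. The phases of these 4 genes did not overlap, which fixes the direction in advance, so only the sizes are informative.

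**Figure D2:**
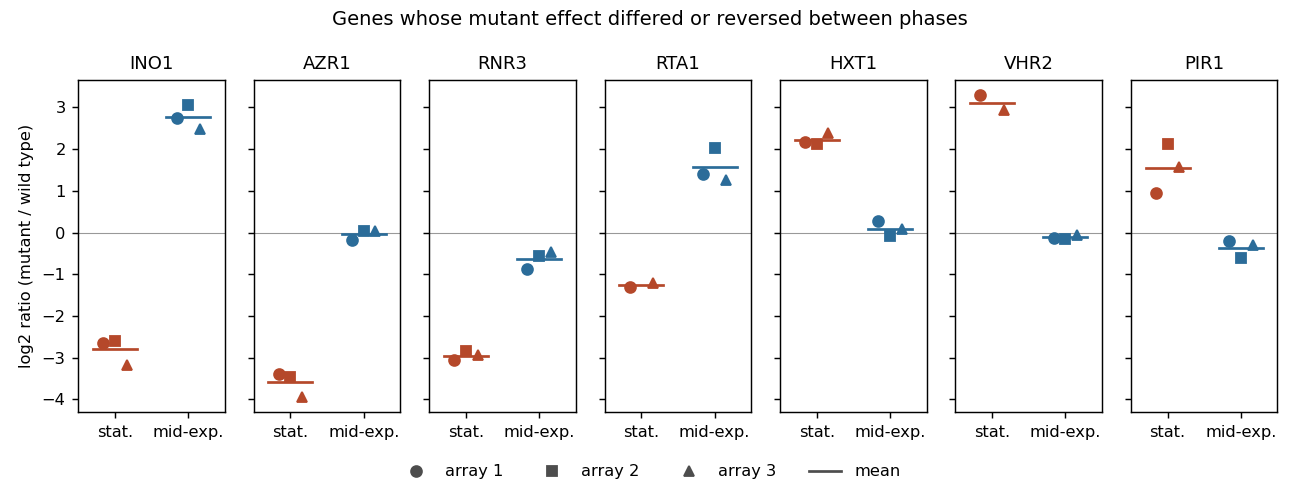
Log2 ratio of mutant over wild type on each array for 7 genes, with stationary arrays in red at the left of each panel and mid-exponential arrays in blue at the right; symbols mark the array number and bars the phase mean. The phases do not overlap for any of the 7 genes, and INO1, RTA1, VHR2 and PIR1 have opposite signs in the 2 phases on every measured array.

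Among the genes just outside the threshold were 5 with an adjusted p of 0.060 in the limma fit. PHO84, the high-affinity phosphate transporter, had log2 ratios of 5.30 and 4.96 on 2 stationary arrays, against -0.34, -2.15 and -2.31 on the mid-exponential arrays. JLP1, a dioxygenase that frees sulphite from sulphonates, had 0.04 and 0.85 on 2 stationary arrays, against -3.32, -4.13 and -4.14 on the mid-exponential arrays. The phases did not overlap for either gene. SPS100, known for a role in spore wall formation, stood at -5.70 and -7.74 on 2 stationary arrays, against -0.40, -0.21 and 0.26 on the mid-exponential arrays. SIM1, of the SUN family of cell wall proteins, and CIN5, a transcription factor of the salt stress response, had differences of 3.03 and -3.03. None of the 5 had a ratio on all 3 stationary arrays. PHO84 and JLP1 were called when both spots of a gene were required or when stationary array 2 was left out, and PHO84 also when mid-exponential array 1 was. SIM1 was called without stationary array 2, and SPS100 with array weights and with arrays scaled to a common spread.

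The same difference was also tested on the authors' deposited tables, a choice made after the values of both sources had been seen. Both sources process the same arrays, so a gene that passes in both was not measured independently. The standard error of each log2 fold change was taken from the tabulated t score. Of 6388 genes, 258 differed at an adjusted p under 0.05 (4.04%), with 125 higher (1.96%) and 133 lower (2.08%) in stationary phase. How the authors' fit treated the paired spots of a gene is not given in the sources used here, and if spots counted as separate values these p-values are too small. Of the 258, 221 were also tested in the limma fit of the array ratios. There 218 had the same direction, 191 had phases that did not overlap (26.3% of all tested genes) and 3 were called, namely INO1, AZR1 and HXT1. The 3 with the opposite direction were KDX1, RTC3 and STM1. A further 9 lay in wells whose names were not relied on, and 27 of the remaining 28 had fewer than 2 ratios in stationary phase.

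Of these 258 genes, 171 had log2 fold changes of opposite sign in the authors' deposited tables: 98 were above wild type in stationary and below it in mid-exponential phase, and 73 the reverse. These are signs of the point values, some of them near 0, as for HXT1 at -0.02 in mid-exponential phase. Only 3 genes had an adjusted p under 0.05 in both phases with opposite signs. The share of all 6388 genes with opposite point signs was not counted. The other 87 had the same sign in both phases, and for 69 of them the effect was the smaller one in stationary phase. Over all genes, the 2 tables differ in scale. Across the 4289 genes, the slope of the tabulated log2 fold change on the mean array ratio was 0.22 in stationary and 0.47 in mid-exponential phase. The slope is not a factor shared by each gene. In stationary phase the tabulated value was 2.11 against a mean array ratio of 2.22 for HXT1, and 0.11 against 3.12 for VHR2. Some genes with equal array ratios in both phases can therefore show a smaller tabulated effect in stationary phase, which bears on differences of size but not on opposite signs.

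**Figure D3:**
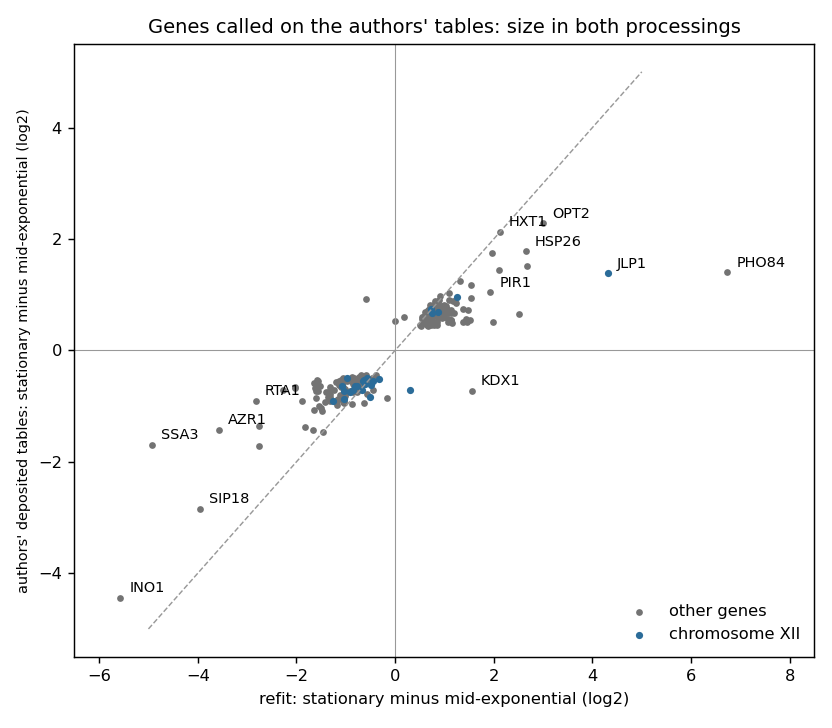
Stationary minus mid-exponential difference of the log2 value in the authors' deposited tables (vertical axis) against that in the limma fit of the array ratios (horizontal axis), for the 221 genes that differed in the test on the tables and had enough ratios; chromosome XII genes are blue, other genes grey, and the dashed line marks equal sizes. All but KDX1, RTC3 and STM1 have the same direction in both, and most lie on the side of smaller tabulated differences.

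Among 20 tested inositol and phospholipid genes, 4 went from above wild type to below it in stationary phase on every measured array (120 genes, 2.8%, over all tested). PIS1 alone went from below to above (186 genes, 4.34%, over all tested), which for 1 of 20 is near the share of all genes. In the limma fit 1 member was called, INO1 (5 genes, 0.117%, over all tested). The difference was below 0 for 15 members, with a median of -0.24 against 0.004 over all tested genes. ITR1, the main inositol transporter, had log2 ratios of -0.43, -0.23 and -0.27 on the stationary arrays, against 0.27, 0.21 and 0.41 on the mid-exponential arrays. It thus had the same signs as INO1 on every array, at a much smaller size. The difference of -0.61 ± 0.20 (SE) missed the threshold in the limma fit (adjusted p = 0.30) and passed in the test on the authors' deposited tables (-0.57, adjusted p = 0.024).

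PIS1, which joins inositol to a phospholipid precursor to make phosphatidylinositol, had the opposite pattern. Its log2 ratios were 0.40, 0.87 and 0.54 on the stationary arrays, against -0.34, -0.48 and -0.25 on the mid-exponential arrays. The difference was 0.96 ± 0.23 (SE; adjusted p = 0.21 in the limma fit), and 0.70 with an adjusted p of 0.0039 in the test on the authors' deposited tables. OPI3, a methyltransferase of phosphatidylcholine synthesis, did not reverse: it was at -1.31, -2.0 and -1.01 in stationary and at -0.16, -0.08 and -0.10 in mid-exponential phase. Its difference of -1.33 ± 0.30 (SE) missed the threshold in the limma fit (adjusted p = 0.19), and so did the difference of -0.34 from the authors' deposited tables. PAH1, the phosphatidate phosphatase that turns phosphatidate toward storage lipid, lay in a well whose name was not relied on. PAH1 stood at -1.79 in stationary and -0.22 in mid-exponential phase in the authors' deposited tables, a difference of -1.56 that passed the test on those tables.

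Seripauperins are a subtelomeric family of small, nearly identical mannoproteins, many of them expressed in anaerobic fermentation. All 24 list members were tested, and none was called in the limma fit, where the smallest adjusted p was 0.14. The difference was below 0 for 23 of the 24, against 2133 of 4289 over all genes, and the median difference was -0.91. Medians over the family were -0.06, -0.12 and -0.10 on the stationary arrays, against 1.01, 0.93 and 0.60 on the mid-exponential arrays. The stationary medians sat near 0 and the mid-exponential ones clearly above it. The phases did not overlap, with stationary lower, for 19 members (508 genes, 11.8%, over all tested), and for 6 members the signs were opposite on every array (120 genes, 2.8%, over all tested).

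In the test on the authors' deposited tables, 19 of the 24 seripauperins differed, all lower in stationary phase (133 genes, 2.08%, over all 6388), and 16 of these 19 lie outside chromosome XII. PAU6 had the largest difference of the family, with log2 ratios of -0.36, -0.33 and -0.80 on the stationary arrays, against 1.26, 1.30 and 0.86 on the mid-exponential arrays. PAU6 was below wild type in stationary and above it in mid-exponential phase on every array. PAU24 was near 0 in stationary phase: it had 0.08, -0.12 and 0.08 on the stationary arrays, against 0.84, 1.21 and 1.08 on the mid-exponential arrays. PAU9 was the one member above 0, at 0.27. The copies can bind each other's RNA, so these members are not independent measurements.

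**Figure D4:**
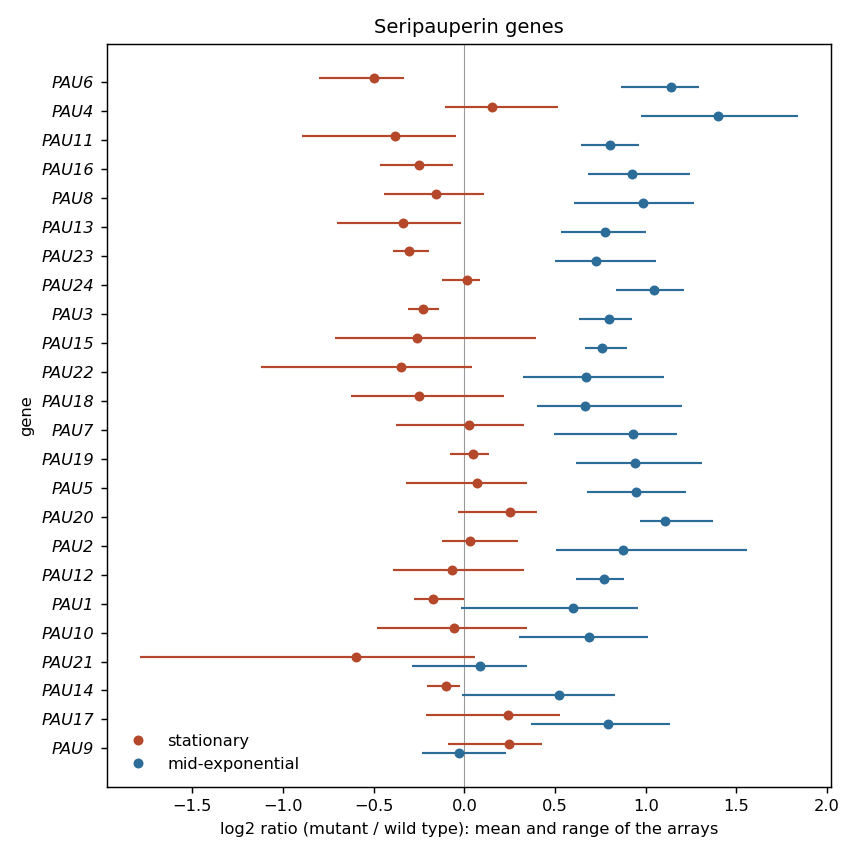
Log2 ratio of mutant over wild type for the 24 seripauperin genes, ordered by the size of the difference, with stationary phase in red and mid-exponential phase in blue; points are means and lines the range of the arrays. Stationary means run from -0.60 to 0.25 and mid-exponential means from -0.03 to 1.40.

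The DAN/TIR and other hypoxic genes, which share anaerobic expression with the seripauperins, had a median difference of -0.18 over 23 tested genes, with 16 below 0 and none called in the limma fit. Of the 25, 1 stood higher and 3 lower in the test on the authors' deposited tables (1.96% and 2.08% over all genes). The higher one was CYC7, and PAU23 and PAU24, which are also counted with the seripauperins, were 2 of the lower ones. The other was UPC2, an activator of sterol synthesis and of anaerobic genes. Its log2 ratios were -0.09, -0.08 and -1.82 on the stationary arrays, against 0.87, 0.95 and 0.97 on the mid-exponential arrays. The phases were opposite in sign on every array, but stationary array 3 was far from the other stationary arrays.

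Hexose transport genes had a median difference of 0.21 over 20 tested genes, with 12 above 0. Array medians were -0.06, 0.45 and -0.14 in stationary and 0.05, 0.05 and -0.09 in mid-exponential phase. Only stationary array 2 lay above the mid-exponential range, so the list as a whole was not higher on each stationary array. Besides HXT1, none was called in the limma fit. HXT4 and HXT6, transporters of higher affinity, had differences of 1.31 ± 0.41 and 0.73 ± 0.24 (SE), with phases that did not overlap and adjusted p of 0.29 and 0.30 in the limma fit. In the test on the authors' deposited tables both stood higher in stationary phase, by 1.25 and 0.64. HXT5, a transporter of slow growth, went the other way without passing either test: it was at -1.67, -1.74 and -1.22 in stationary and at 0.81, -0.22 and -0.06 in mid-exponential phase.

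Of 23 phosphate regulon genes tested, 14 had a difference above 0 and the median was 0.11, with none called in the limma fit. GIT1, the permease for glycerophosphoinositol, had log2 ratios of 2.62 and 2.07 on 2 stationary arrays, against -0.59 and -0.07 on 2 mid-exponential arrays. PHM6, whose transcript is known to be regulated by phosphate, went the other way, with -0.93, -0.24 and -0.52 on the stationary arrays, against 0.47, 0.40 and 0.37 on the mid-exponential arrays. Both had opposite signs in the 2 phases on every measured array. PHO84, GIT1 and PHM6 passed in the test on the authors' deposited tables, with differences of 1.40, 1.52 and -0.56. The regulon as a whole did not move one way.

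In the cell wall integrity signalling list, 15 of 20 tested genes had a difference below 0 and the median was -0.32. None was called in the limma fit. Array medians were -0.08, 0.67 and 0.41 in stationary and 0.37, 0.54 and 0.35 in mid-exponential phase, so the phases overlapped. Only stationary array 1 lay below the mid-exponential range, and stationary array 2 lay above it. MID2, a sensor of cell wall stress at the plasma membrane, was above wild type on every array, at 1.17, 1.10 and 2.12 in stationary and at 2.27, 2.92 and 2.33 in mid-exponential phase. The difference of -1.04 ± 0.36 (SE) had an adjusted p of 0.32 in the limma fit, and the difference of -0.74 from the authors' deposited tables passed there (adjusted p = 0.013). KDX1, a pseudokinase induced through Slt2, was also above wild type on every measured array, but its direction depended on the source. It was 1.55 higher in stationary phase in the limma fit, and 0.72 lower in the authors' deposited tables. WSC2, another sensor, stood at 2.64 and 1.95 on 2 stationary arrays, against 0.05, 0.15 and 0.53 on the mid-exponential arrays, and passed neither test.

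Cell wall proteins did not move together. Over 16 tested mannoprotein and Pir genes the median difference was 0.07, with 9 above 0, and this median was below 0 in the authors' deposited tables (-0.06). SCW4, a wall protein related to glucanases, had log2 ratios of 1.07, 0.74 and 0.82 on the stationary arrays, against -0.11, -0.38 and -0.13 on the mid-exponential arrays, so it reversed in sign on every array as PIR1 did. Its difference of 1.08 ± 0.22 (SE) had an adjusted p of 0.17 in the limma fit, and the difference of 1.03 from the authors' deposited tables passed there. CWP1 and NCW2, a pair of wall mannoprotein genes, stood lower in stationary phase in the test on the authors' deposited tables, by -0.62 and -0.64. Neither passed in the limma fit (adjusted p = 0.40 and 0.33). The phases of CWP1 overlapped on the arrays, and NCW2 was above wild type on every array of both phases.

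General stress genes had the second most negative list median, -0.50 over 33 tested genes, with 22 below 0 and none called in the limma fit. Array medians were -1.06, -0.37 and -1.11 in stationary and -0.30, -0.27 and -0.45 in mid-exponential phase, so stationary array 2 lay inside the mid-exponential range. The median shrank to -0.10 in the authors' deposited tables. SSA3, a stress-induced Hsp70, had log2 ratios of -5.36, -2.56 and -6.57 on the stationary arrays, against -0.28, 0.17 and 0.41 on the mid-exponential arrays. SIP18, a hydrophilin of salt and drought stress, had -4.78, -1.71 and -6.40 on the stationary arrays, against 0.06, -0.61 and -0.46 on the mid-exponential arrays. For both genes the phases did not overlap, and stationary array 2 was nearest to the mid-exponential values.

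SSA3 and SIP18 passed in the test on the authors' deposited tables, with differences of -1.69 and -2.84, and in the limma fit they were called when stationary array 2 was left out. HSP26, a small heat shock protein gene, differed in the opposite direction. It was below wild type in both phases, at -0.54, -0.09 and -2.64 in stationary and at -2.63, -3.86 and -4.71 in mid-exponential phase, with overlap between stationary array 3 and mid-exponential array 1. Its difference was 2.64 ± 0.81 (SE; adjusted p = 0.28) in the limma fit, and 1.78 in the authors' deposited tables, where it passed. Over all 34 chaperone and heat shock genes tested, 22 had a difference below 0 and the median was -0.16.

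Arginine and lysine genes had a median difference of 0.22 over 19 tested genes, with 13 above 0 and none called in the limma fit. Of 23, 5 stood higher in stationary phase and none lower in the test on the authors' deposited tables (1.96% and 2.08% over all genes). ARG4, argininosuccinate lyase, had log2 ratios of -0.83, -0.02 and -0.48 on the stationary arrays, against -1.49, -1.21 and -0.78 on the mid-exponential arrays. The mutant was below wild type on all 6 arrays, and the phases overlapped at stationary array 1 and mid-exponential array 3. LYS20 went the other way without overlap, at -2.46, -1.02 and -2.83 in stationary and at -0.49, -0.46 and -0.95 in mid-exponential phase. Its difference of -1.47 ± 0.50 (SE) had an adjusted p of 0.31 in the limma fit, and the authors' deposited tables gave 0.19. ARG56, which encodes 2 enzymes of ornithine synthesis in one protein, reversed, with 0.04, 0.68 and 0.52 in stationary and -0.72, -0.55 and -0.32 in mid-exponential phase. Of the rest of amino acid synthesis, HOM2, aspartate semialdehyde dehydrogenase, reversed in the same direction on every array, with a difference of 1.16 ± 0.26 (SE) in the limma fit (adjusted p = 0.19) and 0.88 in the authors' deposited tables, where it passed.

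Ribonucleotide reductase and DNA damage genes had a median difference of -0.14 over 19 tested genes. RNR2, the small subunit of the enzyme, shared the direction of RNR3: it had log2 ratios of -1.73, -1.0 and -2.11 on the stationary arrays, against -0.25, -0.14 and -0.17 on the mid-exponential arrays. Its difference of -1.42 ± 0.33 (SE) had an adjusted p of 0.19 in the limma fit, and the difference of -0.92 passed in the test on the authors' deposited tables. RNR1, the main large subunit, went the other way, at 0.67, 3.00 and 0.27 in stationary and at -0.10, -0.20 and 0.07 in mid-exponential phase, and passed neither test. DNA replication and G1/S genes had the most positive list median, 0.41 over 28 tested genes, with 21 above 0, 12 with stationary above mid-exponential and no overlap (622 genes, 14.5%, over all tested), and none called in the limma fit. That median was 0.11 in the authors' deposited tables, where 1 of 50 genes passed (4.04% over all genes), and it turned to -0.07 under 1 of the alternatives tried.

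Most cytosolic ribosomal protein genes had small differences above 0. The median difference was 0.15 over 123 tested genes, with 89 above 0, and 113 of 138 were above 0 in the authors' deposited tables, where 3437 of all 6388 genes were. Array medians were 0.38, -0.01 and 0.07 in stationary and -0.01, -0.08 and 0.03 in mid-exponential phase, so the phases overlapped. No ribosomal protein gene was called in the limma fit, and 2 stood higher and 1 lower in the test on the authors' deposited tables (1.96% and 2.08% over all genes). RPL1A was one of the 2, at 0.62, 0.03 and 0.08 in stationary and at -0.46, -0.17 and -0.35 in mid-exponential phase.

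Over 18 tested genes of IMP dehydrogenase and purine synthesis the median difference was 0.03, with none called in the limma fit, and 1 of 22 stood higher and 5 lower in the test on the authors' deposited tables (1.96% and 2.08% over all genes). IMD1 and IMD2 belong to the IMP dehydrogenase family, whose enzyme serves guanine nucleotide synthesis. Both were above wild type on every measured array of both phases. IMD1 had log2 ratios of 1.09, 0.93 and 0.89 on the stationary arrays, against 1.65, 1.60 and 1.56 on the mid-exponential arrays, a difference of -0.63 ± 0.20 (SE; adjusted p = 0.29 in the limma fit). IMD2 was at 0.74 and 0.55 on 2 stationary arrays, against 1.38, 1.31 and 0.96 on the mid-exponential arrays. Both passed in the test on the authors' deposited tables, with differences of -0.94 and -0.79. The family members are near-identical and can share RNA between spots. ADE17, an enzyme of late purine synthesis, reversed the other way on every array, at 0.24, 0.34 and 0.01 in stationary and at -0.55, -0.62 and -0.62 in mid-exponential phase, and passed in the test on the authors' deposited tables (0.63).

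**Figure D5:**
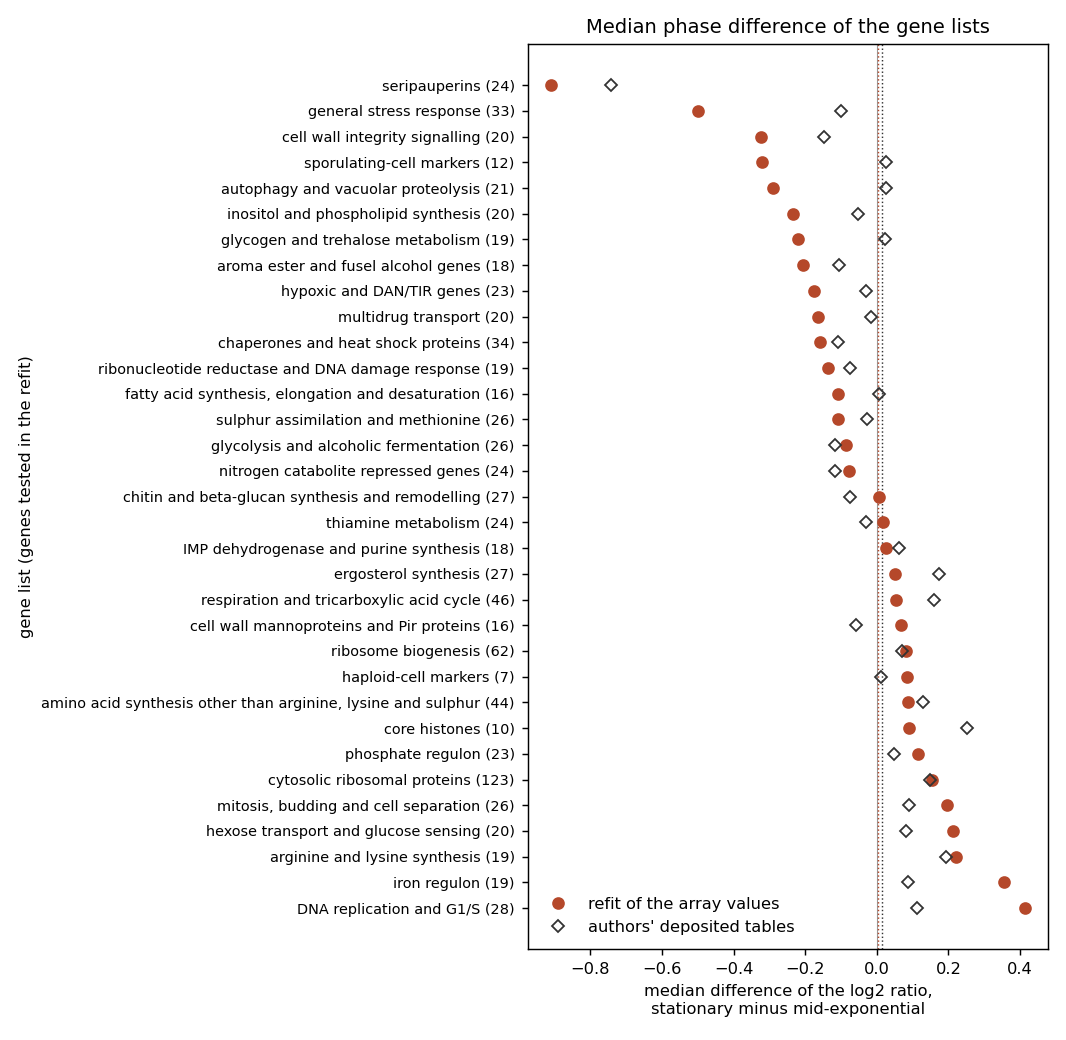
Median difference of the log2 ratio, stationary minus mid-exponential, for each gene list (rows, with the number of genes tested in the limma fit), from the array ratios (red points) and from the authors' deposited tables (open diamonds); dotted lines mark the medians over all genes. Seripauperins lie farthest below 0 in both, at -0.91 and -0.74, while general stress genes lie at -0.50 and -0.10.

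Several other genes had large differences in the test on the authors' deposited tables. OPT2, an oligopeptide transporter, had log2 ratios of 2.56, 4.52 and 2.02 on the stationary arrays, against -0.54, -0.11 and 0.75 on the mid-exponential arrays, with no overlap. PMA1, the plasma membrane proton pump, was at 1.14, 0.76 and 0.35 in stationary and at -0.07, -0.15 and 0.01 in mid-exponential phase. HSP10, the mitochondrial co-chaperonin, and CYC7, a hypoxic isoform of cytochrome c, had tabulated differences of 0.78 and 0.97. HAC1, the transcription factor of the unfolded protein response, and ERO1, an oxidase of disulphide formation, had -0.94 and -0.64. The phases overlapped on the arrays for CYC7 and HAC1. HAC1 was at 0.21, -0.48 and -0.36 in stationary and at 0.54, 1.83 and 0.11 in mid-exponential phase. GPP1, a glycerol-3-phosphatase, was at -1.08, -1.24 and -2.21 in stationary and at -0.11, -0.12 and -0.10 in mid-exponential phase, a tabulated difference of -0.74. YMR187C, a gene of unknown function, was at -3.15, -2.20 and -3.51 in stationary and at -0.01, -0.31 and -0.25 in mid-exponential phase. Each of these 8 genes passed in the test on the authors' deposited tables and none in the limma fit of all 6 arrays with equal weights. With array weights, and without stationary array 2, YMR187C was called.

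Chromosome XII genes had medians above 0 on all 6 arrays, and the medians of the 2 phases overlapped. The median over its 359 tested genes was 0.73 in stationary and 0.68 in mid-exponential phase, and the median difference was 0.08, with 198 genes above 0 and 161 below. The array medians were 0.63, 0.50 and 0.97 in stationary and 0.62, 0.79 and 0.63 in mid-exponential phase. In the authors' deposited tables the medians were 0.20 in stationary and 0.34 in mid-exponential phase, and 391 of 551 genes had a difference below 0. There 5 of its genes passed with a higher and 27 with a lower value in stationary phase (1.96% and 2.08% over all genes). The calls outside the chromosome were 120 higher and 106 lower. MID2, NCW2, JLP1 and STM1 lie on this chromosome, and the part of its shift in their differences was not tested.

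Over all 4289 genes, the phase means of the log2 ratio correlated at r = 0.30 across genes, a description over arrays that share some fermentation vessels. The phases did not overlap for 1130 genes, 26.3%, and the sign was opposite on every measured array for 306, of which 186 (4.34%) stood above wild type in stationary phase. The sign was the same on every measured array of both phases for 807 genes. The median size of the difference was 0.39, against a median standard error of 0.35, so for most genes 3 arrays a phase could not separate the phases.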

How the data were processed

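The authors deposited a log2 ratio for each spot of each array; R 2.9.2 and limma are named in the submitters' processing notes. How background, dye bias and poor spots were handled is not given in the sources used here. Per the file headers, the authors' deposited tables hold 6388 genes per phase, each with its log2 fold change, average log2 intensity, t score, raw and adjusted p-value, and the stationary table adds a linear fold change. On each array 98.6 to 100% of the authors' calls had their tabulated sign, so ratios of dye-swapped arrays were already turned. Spots were joined to genes by plate well and averaged. Genes in row E of plates 10 to 19 (228) were left out, since their well names could not be relied on (r with the authors' log2 fold changes 0.401 and 0.277, against 0.969 and 0.814 for other wells). Symbols of 5849 genes came from the reference annotation.

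Genes measured on 2 or more arrays per phase were tested with limma 3.58.1 in R 4.3.3 (a mean per phase, two-sided, Benjamini-Hochberg over all tested genes); the calculation was tested on simulated data. Labels name separate vessels within a phase, but array 3 shares both vessels across phases, array 1 the mutant's and array 2 the wild type's. The added test on the authors' deposited tables took standard errors from the log2 fold changes and t scores, and degrees of freedom of 9.6 (stationary) and 11.7 (mid-exponential) from t and p. The members and lists were chosen with earlier results of these data known. Named were the genes called (up to 15 in each direction), those the authors called in both phases with opposite signs, KNR4 and its neighbours, in each of 33 lists the called members or the 3 with the smallest p, and, added after the values were seen, the 20 largest differences in each direction on the authors' tables and up to 4 list members each way; the text gives these by example, and SIM1, CIN5, OPI3, HXT5, RNR1, PAU9 and STM1 were named after their values were seen. Tables and plots used Python 3.11.15, pandas 2.3.3 and matplotlib 3.10.9.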

Additional observations from a re-analysis of the deposited data

Results flagged for a closer look

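5 results were flagged because the mutant's effect differed between the phases in a test of the difference itself. The log2 ratio in stationary phase minus that in mid-exponential phase was -5.57 for INO1, -3.57 for AZR1, -2.32 for RNR3, 3.23 for VHR2 and 2.13 for HXT1. With 3 arrays in each phase, no formal test for an outlying array was made.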

How the results depend on the processing

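Of the 5 genes that differed, 2 of them with opposite signs on every array, the counts were 5 and 2 with arrays centred, chromosome XII left out, at least 1 ratio per phase or the median of spots. They were 1 and 1 (INO1) with array number as a replicate block. Deviations from the phase means correlated at 0.08, 0.21 and -0.05 between same-numbered arrays, which share 1 or 2 vessels. Between differently numbered arrays of the 2 phases these correlations ran from -0.28 to 0.28. Array weights gave 7 and 2, adding SPS100 and YMR187C, and row E wells kept gave 6 and 2, adding SFH5. They were 2 and 1 with a dye term, 4 and 1 with ratios on all 6 arrays, and 1 and 1 with robust eBayes and trend. Leaving out 1 array gave 1 to 21 and 1 to 9. Chosen after seeing the data, the 4 arrays with the mutant in Cy5 gave 0 and 0 in limma (497 at an unadjusted p under 0.05), both spots measured gave 6 and 3, and the test on the authors' deposited tables gave 258. Of named genes, LYS20 (0.19), NOC4 (-0.043), HHO1 (0.14), ARO10 (-0.35) and FUS2 (-0.12) turned direction in the authors' tables, CCC1 (0.021) and HTB1 (-0.002) with Cy5 arrays, DIE2 (-0.18) with both spots measured, and HHO1 (range -0.42 to 0.0005) and DIE2 (-0.18 to 0.53) without mid-exponential replicate 1, over fits that left out 1 array; the cause was not tested. Promoter motifs were not run. Fewer ratios on the stationary arrays limited what could be tested.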

Other observations

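2 further groups stood out and were described after their values were seen. The 88 Ty open reading frames annotated as retrotransposon Gag had a median difference of 0.61 over 80 tested in the limma fit, with 68 above 0. Their medians were 0.10, 0.81 and 0.45 on the stationary arrays, against -0.23, -0.03 and 0.07 on the mid-exponential arrays, so the array medians did not overlap. None was called in the limma fit (23 higher and 1 lower at an unadjusted p under 0.05, against 6.97% and 5.81% over all genes). In the authors' deposited tables the median difference was 0.46, with 36 higher and 0 lower in the test on those tables (1.96% and 2.08% over all genes). The copies are near-identical in sequence and are not independent of each other.

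The 28 open reading frames of the mitochondrial genome had a median difference of -0.50 over 27 tested, with 23 below 0 and none called in the limma fit (0 higher and 4 lower at an unadjusted p under 0.05, against 6.97% and 5.81% over all genes). Their medians were -0.02, -0.15 and -0.86 on the stationary arrays, against -0.20, 1.48 and -0.09 on the mid-exponential arrays. The mid-exponential value of array 2, where the mutant was in Cy3, was far from the other mid-exponential arrays, and the other 5 medians overlapped. In the authors' deposited tables COX3, a subunit of cytochrome oxidase, stood at -1.20 in stationary and 0.23 in mid-exponential phase. On mid-exponential array 2 alone its log2 ratio was 2.43, against -0.33 and -0.62 on arrays 1 and 3.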
